A study of Mus musculus with 36 samples.

Results

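The glutathione and antioxidant enzymes are described here as 44 genes, of 14860 measured in mouse pancreatic islets. They were chosen by symbol, with earlier results of these data known. The rule took every gene with a transcript cluster of its own whose symbol belongs to the Gst, Gpx, Prdx, Txnrd or Sod families. Cat, Gclc, Gclm, Gsr, Gss, Txn1, Txn2, Nqo1, Hmox1, Srxn1, Mt1 and Mt2 were added to the rule. The 44 comprised 17 glutathione transferases, 8 glutathione peroxidases, 3 enzymes that make or recycle glutathione (Gclc, Gss and Gsr), 5 genes of the peroxiredoxins and sulfiredoxin, 4 of the thioredoxins and their reductases, 3 of the superoxide dismutases and catalase, 2 metallothioneins, and Nqo1 and Hmox1. A further 7 clusters carried a family symbol together with another gene's (Gstp1 with Gstp2, Gclm with Ppia and Txnrd1 among them) and were left out, since their signal cannot be given to 1 gene. Gstz1, Gpx2 and Gstm3 also had such a shared cluster beside their own, and only their own was used. Sod1, Prdx5, Prdx6, Prdx6b, Gsta1 and Gsta2 were not analysed here.

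Glutathione is a small thiol that cells use to reduce peroxides and to tag electrophiles. The peroxidases spend it on peroxides, the transferases attach it to reactive compounds or use it as a reductant, and glutathione reductase restores it with NADPH. Peroxiredoxins and thioredoxins run a parallel relay, dismutases and catalase act on superoxide and hydrogen peroxide directly, and metallothioneins bind zinc and copper through their many cysteines. Rodent beta cells are known for low catalase and glutathione peroxidase activity among tissues, which is why these genes are followed in islets.

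Islets came from male C57BL/6N mice that were either full-body Gnaz knockouts (KO), which lack 1 protein-coding exon of Gnaz in every tissue, or wild type (WT). Gnaz encodes Gαz, an inhibitory G protein subunit. Mice ate a high-fat diet (HFD, 45 kcal% fat) or a control diet (CD, 10 kcal% fat) for 16 weeks from 11 weeks of age. The age at islet isolation is given as 27 weeks in the study, which 16 weeks of diet from 11 weeks of age also gives, and as 6 months in the sample labels. The protocol gives 37 to 40 weeks, a difference that the files do not explain. Exon arrays were run on 4 KO HFD, 4 WT HFD, 5 KO CD and 5 WT CD islet preparations, 1 array per mouse, and values are log2 levels after robust multiarray averaging (RMA). The study removed 1 KO HFD array. That array was taken to be KO HFD 11, so results are over 17 arrays (3 in KO HFD) and KO HFD 11 is given beside them; arrays are numbered by islet preparation. A gene was called changed at a limma adjusted p under 0.05 over all 14860 genes.

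The arrays differed in ways that touch these genes. Gnaz read 10.03 to 10.11 in KO HFD, 11.02 to 11.26 in WT HFD, 10.20 to 10.56 in KO CD and 11.04 to 11.15 in WT CD islets, so the knockout labels held in every array. The median over all genes was 8.34 to 8.40 in the 3 KO HFD arrays and 8.48 to 8.71 in the 14 others of the fit. All 10 beta cell markers lay above background, here the 95th percentile of 718 olfactory receptor genes, 7.51 on the log2 scale, in all groups. The mean of 12 acinar digestive enzymes, which mark the exocrine tissue around islets, was 13.87 to 14.11 in KO HFD, 13.15 to 13.60 in WT HFD, 13.52 to 13.93 in KO CD and 13.78 to 14.08 in WT CD islets. KO HFD 11 had a mean of 10.53 over 18 intestinal epithelium genes, against 7.20 to 7.48 in every other array. Of the members, 32 lay above background in all 4 groups, Gsta3 and Prdx1 in some, and 10 in no group (Gpx2, Gpx5, Gpx6, Gstp3, Gstt4, Gstm3, Gsta4, Nqo1, Txn1 and Txnrd3). Differences of those 10 are compressed towards 0, as are those of Prdx1 that involve KO HFD islets, where it averaged 7.25, and those of Gsta3 that involve WT HFD islets, where it averaged 7.24.

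Gsto2 gave the largest difference of any member, and it was high in a single group. It encodes an omega-class glutathione transferase, a class that reduces dehydroascorbate and other substrates with glutathione rather than conjugating them, and is transcript cluster 6870182. Gsto2 read 7.84, 7.96 and 8.20 in KO HFD islets (KO HFD 11: 8.26), against 8.84, 8.98, 9.30 and 9.44 in WT HFD islets. On control diet it read 7.92 to 8.56 in KO CD islets (median 8.16) and 8.16 to 8.41 in WT CD islets (median 8.33). Every WT HFD array therefore lay above all 14 other arrays, which reached 8.56 at most. The mean was 8.00 ± 0.18 in KO HFD (SD, n = 3), 9.14 ± 0.28 in WT HFD (SD, n = 4), 8.17 ± 0.25 in KO CD and 8.29 ± 0.11 in WT CD islets (SD, n = 5 each).

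Gsto2 was 0.85 higher on the log2 scale in WT HFD than in WT CD islets (SE 0.13, limma adjusted p = 0.024). In KO HFD islets it fell by 1.14 relative to WT HFD islets (SE 0.15, limma adjusted p = 3.9e-04). The KO HFD minus KO CD difference was -0.16 (95% interval -0.47 to 0.14, limma adjusted p = 0.38), and between KO CD and WT CD islets it was -0.12 (95% interval -0.39 to 0.14, limma adjusted p = 0.65). The interaction of genotype and diet, which asks whether the genotype difference is the same on both diets, was -1.01 (SE 0.20, limma adjusted p = 0.0039).

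The fall in KO HFD relative to WT HFD islets held when each array was centred on its own median (-0.97, limma adjusted p = 0.0019) and over all 18 arrays (-1.07, limma adjusted p = 0.0020). With the acinar enzyme mean as a covariate it was -0.96 (limma adjusted p = 0.071), and the interaction -0.75 (limma adjusted p = 0.27). The rise on HFD in WT islets was less secure: its adjusted p was 0.075 to 0.099 when WT CD 5, 6 or 15 or WT HFD 8, 9 or 16 was left out, at a log2 difference of 0.75 to 0.95 over all single omissions. With the acinar covariate the rise was 0.67 (limma adjusted p = 0.9998). The acinar enzyme mean did not overlap between WT HFD islets and either WT CD or KO HFD islets, so fits with it cannot separate it from these groups. Because islets are a mixture, fewer cells of a type and less RNA per cell cannot be told apart in any of these values.

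The start of Gsto2 is shown because it is the member on which the results turn. RefSeq (GRCm38.p6) gives 2 overlapping windows, each of 250 bases before and 50 bases after a start, and the first is printed 5′ to 3′ along the gene, with no base in capitals. The letters TGACNNNGC, the core of the antioxidant response element that the transcription factor NRF2 binds, occurred on neither strand of either window.
Gsto2, chr19:47865295-47865594, + strand: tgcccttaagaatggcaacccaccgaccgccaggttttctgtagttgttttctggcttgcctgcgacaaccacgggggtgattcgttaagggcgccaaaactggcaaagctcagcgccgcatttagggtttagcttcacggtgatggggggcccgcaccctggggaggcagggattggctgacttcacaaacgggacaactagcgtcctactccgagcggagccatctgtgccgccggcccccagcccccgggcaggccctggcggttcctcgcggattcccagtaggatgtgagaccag
Of the 38 members that had a RefSeq window, 6 (15.8%) held the core on either strand (Gsta3, Gstm5, Gstm7, Mt2, Prdx1 and Srxn1), against 14.0% of 27025 genes. Gclc, Gsr, Gsta4, Gstt2, Hmox1 and Sod3 had no window and were not searched, nor were bases outside the windows. A match is a string of letters, and the share among the members searched was close to that among all genes.

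Gsto1, the other omega-class transferase and the neighbour of Gsto2 on chromosome 19, did not separate the groups. It read 8.60, 8.81 and 9.23 in KO HFD islets, 9.13 to 9.35 in WT HFD, 8.68 to 9.15 in KO CD and 8.99 to 9.31 in WT CD islets, with overlap between each pair of groups compared. Its difference was -0.32 for KO HFD against WT HFD islets (95% interval -0.62 to -0.02, limma adjusted p = 0.10) and 0.07 for WT HFD against WT CD islets (limma adjusted p = 0.92). No comparison called it.

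**Figure D1:**
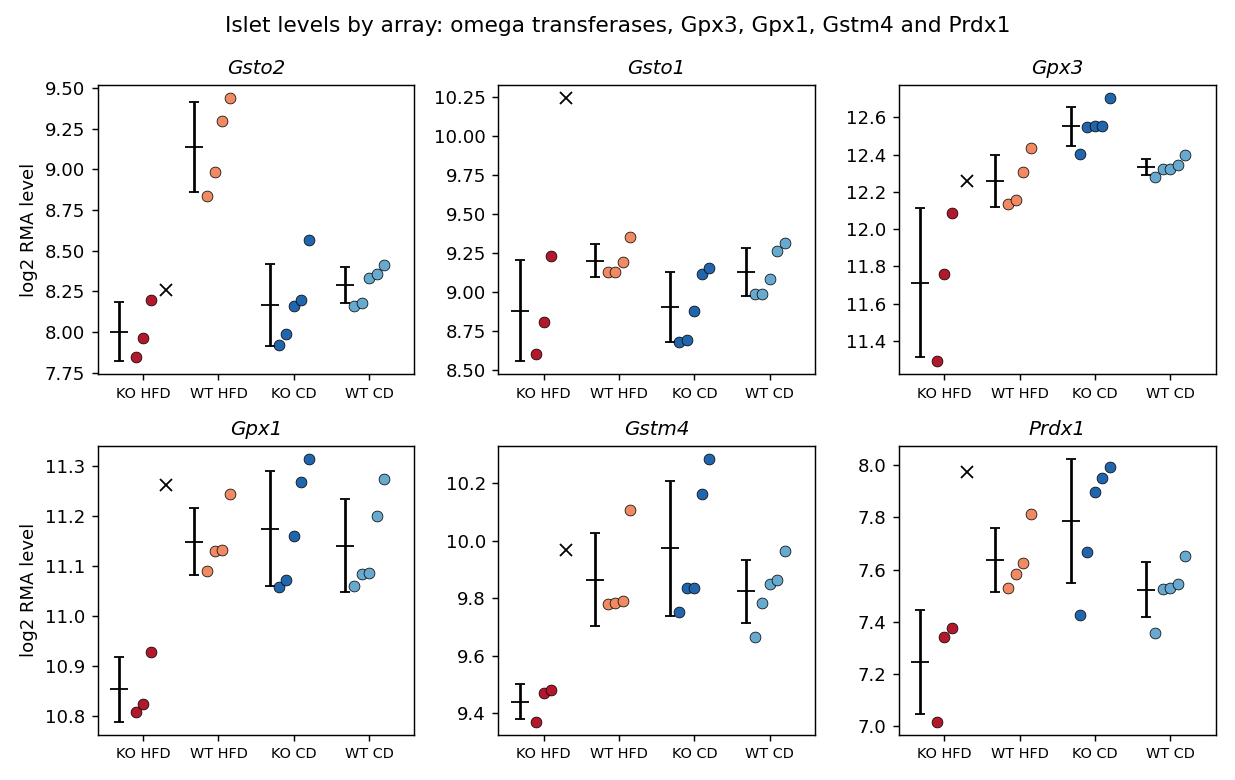
Log2 RMA level (vertical axis, its own range in each panel) of 6 members in KO HFD, WT HFD, KO CD and WT CD islets, with points for arrays, bars for the mean ± SD of 3, 4, 5 and 5 arrays, and a cross for KO HFD 11, which is outside the mean. Gsto2 lies between 8.84 and 9.44 in WT HFD islets and at or below 8.56 in all other arrays, whereas Gsto1 overlaps between groups.

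High-fat feeding of WT mice changed no member other than Gsto2 past the threshold. The higher call made 1 of 44 members (2.27%), against 0.0202% of all genes called higher in WT HFD than in WT CD islets, and no member was called lower, against 0.168% of all genes. The higher share rests on Gsto2 alone, in a group chosen with earlier results known, so it is no test of the group. At an unadjusted p under 0.05 there were 8 members and 1260 genes (8.48%). The median difference was -0.02 over members and 0.01 over all genes.

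The arrays of WT HFD and WT CD islets did not overlap for 5 members (11.4%, against 4.93% of all genes): Gsto2, Cat, Gstm2, Gstt3 and Prdx4. Cat encodes catalase, which splits hydrogen peroxide in peroxisomes. It read 9.88, 10.04, 10.12 and 10.13 in WT HFD islets, against 10.39, 10.62, 10.63, 10.78 and 10.79 in WT CD islets, a difference of -0.60 (95% interval -0.90 to -0.30, limma adjusted p = 0.13). Prdx4, the peroxiredoxin of the endoplasmic reticulum, read 8.28, 8.48, 8.51 and 8.65 in WT HFD islets, against 8.84, 8.97, 9.29, 9.45 and 9.53 in WT CD islets, a difference of -0.74 (95% interval -1.12 to -0.35, limma adjusted p = 0.16). For Gstt3, a theta-class transferase, the difference was -0.41 (limma adjusted p = 0.17), and for Gstm2, of the mu class, -0.28 (limma adjusted p = 0.18). These 4 members had levels in each WT HFD array below those in each WT CD array without passing the adjusted threshold. With only these 2 groups in the fit, Cat, Gstt3 and Prdx4 were called lower (4 members called in all), and with array weights 5 were lower (those 3 with Gstm2 and Gstm7). Acinar enzyme genes moved the same way, 7 of 12 called lower in WT HFD than in WT CD islets. With their mean as a covariate no member was called (2 at an unadjusted p under 0.05). That mean did not overlap between the 2 groups (13.15 to 13.60 in WT HFD, 13.78 to 14.08 in WT CD islets), so the fit cannot separate diet from acinar content. Gsto2 kept a difference of 0.67 in it (limma adjusted p = 0.9998).

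KO HFD islets differed from WT HFD islets in 15 members, 2 higher and 13 lower. The higher share was 4.55% of members against 1.32% of all genes, and the lower share 29.5% against 28.1%. The groups did not overlap for 17 members (38.6%), against 38.7% of all genes. The median difference was -0.17 over members and -0.13 over all genes, so the members' median lay close to that of the arrays as a whole. Markers of several cell types were called lower in the same comparison, beside the 28.1% of all genes. These were 8 of 10 for endothelium (mean 9.70 to 9.81 in KO HFD, against 9.91 to 10.02 in WT HFD islets) and 3 of 4 for alpha cells (11.08 to 11.34, against 11.38 to 11.58). Beta cells had 3 of 10 lower (12.87 to 12.98, against 13.01 to 13.15), delta cells 1 of 3, stellate cells and fibroblasts 3 of 13, and leukocytes 1 of 18. Acinar genes went the other way, with 11 of 12 digestive enzymes and 11 of 15 other acinar genes called higher. The part of these cell types in the members' falls was not tested.

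Among the enzymes that make and restore glutathione, Gss and Gsr were lower in KO HFD relative to WT HFD islets. Gss, glutathione synthetase, joins glycine to the dipeptide precursor. It read 8.43, 8.46 and 8.49 in KO HFD islets, against 8.64, 8.64, 8.74 and 8.94 in WT HFD islets, a difference of -0.28 (SE 0.09, limma adjusted p = 0.025). Gsr, glutathione reductase, differed by -0.22 (SE 0.08, limma adjusted p = 0.045) and lost its call in 11 of 17 omissions of an array. Gss lost its call without WT HFD 7, KO HFD 10, KO HFD 17 or KO HFD 18 (limma adjusted p up to 0.082) and over all 18 arrays (-0.15, limma adjusted p = 0.37). Gclc, the catalytic subunit of the first and limiting step of synthesis, read 9.55 to 9.91 in KO HFD and 9.73 to 9.99 in WT HFD islets and was not called. Relative to the array medians, Gss differed by -0.11 and Gsr by -0.05, and neither was called.

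Of the 8 glutathione peroxidases, Gpx1 and Gpx3 were lower in KO HFD relative to WT HFD islets. Gpx3 encodes the secreted peroxidase. It read 11.29, 11.76 and 12.09 in KO HFD islets (KO HFD 11: 12.26), against 12.13, 12.16, 12.31 and 12.43 in WT HFD islets, a difference of -0.54 (SE 0.13, limma adjusted p = 0.0068). KO HFD 10 was the lowest of all 18 arrays. Gpx1, the cytosolic enzyme, read 10.81, 10.82 and 10.93 in KO HFD islets, against 11.09, 11.13, 11.13 and 11.24 in WT HFD islets, a difference of -0.29 (SE 0.07, limma adjusted p = 0.0080). KO HFD 11, at 11.26, lay above all 4 WT HFD arrays. Centred on the array medians, Gpx3 differed by -0.38 and Gpx1 by -0.13, neither past the threshold, and near-identical copies of Gpx1 and Gpx4 elsewhere in the genome could share probes with them.

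Among 17 transferases, Gstm4, Gstm5, Gstz1 and Gsto2 were lower in KO HFD relative to WT HFD islets and none was higher. Gstm4, of the mu class, read 9.37, 9.47 and 9.48 in KO HFD islets (KO HFD 11: 9.97), against 9.78, 9.78, 9.79 and 10.11 in WT HFD islets, a difference of -0.42 (SE 0.12, limma adjusted p = 0.015). Its call ended without WT HFD 7 or KO HFD 18 (limma adjusted p up to 0.057). Gstm5 differed by -0.34 (limma adjusted p = 0.0089). The Gstm genes lie in a cluster and are alike in sequence, so probe signal may be shared among them. Gstz1, which isomerizes maleylacetoacetate in tyrosine breakdown, differed by -0.41 (SE 0.09, limma adjusted p = 0.0062). After median centring, Gsto2 was still called lower, Gstm4 (-0.25), Gstm5 (-0.17) and Gstz1 (-0.24) were not called, and Gstt1 was called higher (0.31). Gsta3, an alpha-class transferase, read 7.66, 7.82 and 8.11 in KO HFD islets, against 6.96, 7.16, 7.24 and 7.61 in WT HFD islets, without overlap, but its error was the largest of all members (0.62, SE 0.31, limma adjusted p = 0.14).

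In the peroxiredoxin and thioredoxin relay, Prdx1, Prdx3, Srxn1, Txn2 and Txnrd3 were lower in KO HFD relative to WT HFD islets. Prdx3, thioredoxin Txn2 and the reductase Txnrd2 serve mitochondria, and Srxn1 encodes sulfiredoxin, which repairs over-oxidized peroxiredoxins. Txn2 read 9.97, 10.11 and 10.32 in KO HFD islets (KO HFD 11: 10.52), against 10.41, 10.42, 10.51 and 10.72 in WT HFD islets, a difference of -0.38 (SE 0.09, limma adjusted p = 0.0061). Srxn1 read 9.99, 10.14 and 10.16 in KO HFD islets (KO HFD 11: 10.51), against 10.33, 10.34, 10.34 and 10.42 in WT HFD islets, a difference of -0.26 (SE 0.06, limma adjusted p = 0.0066). Neither gene overlapped between the groups. The differences were -0.39 for Prdx1, -0.36 for Prdx3 and -0.24 for Txnrd3. Txnrd3 lay below background in every group, and Prdx1 in KO HFD islets. The calls of Prdx1 and Prdx3 ended without WT HFD 7 or KO HFD 17 (limma adjusted p up to 0.14 and 0.12), and that of Prdx3 also without KO HFD 18. None of the 5 was called after median centring, where Txn2 came nearest (-0.21, limma adjusted p = 0.056). Cat, Sod2, Sod3, Hmox1 and Nqo1 were not called in this comparison.

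Prdx1 and Srxn1 are textbook NRF2 targets, and their windows (RefSeq, GRCm38.p6) are shown because both held the antioxidant core, in capitals, on the strand opposite to the gene.
Prdx1, chr4:116685349-116685648, + strand: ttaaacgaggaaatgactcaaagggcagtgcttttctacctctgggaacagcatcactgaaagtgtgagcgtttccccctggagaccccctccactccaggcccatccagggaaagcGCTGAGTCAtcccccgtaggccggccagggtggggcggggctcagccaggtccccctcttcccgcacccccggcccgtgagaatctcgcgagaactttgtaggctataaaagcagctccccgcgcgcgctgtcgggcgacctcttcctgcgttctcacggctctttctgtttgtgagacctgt
Srxn1, chr2:152105274-152105573, + strand: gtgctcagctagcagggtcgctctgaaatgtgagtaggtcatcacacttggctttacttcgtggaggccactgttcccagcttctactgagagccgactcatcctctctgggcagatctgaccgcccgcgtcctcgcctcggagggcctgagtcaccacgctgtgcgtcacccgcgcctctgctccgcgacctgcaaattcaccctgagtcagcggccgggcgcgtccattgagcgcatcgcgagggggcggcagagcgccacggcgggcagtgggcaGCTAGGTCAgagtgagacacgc
The core began at position -133 of Prdx1 and at position 28 of Srxn1, counted from the start as 0. The genes whose windows held the core did not move as a set: Mt2 was higher in KO HFD relative to WT HFD islets, Prdx1, Srxn1 and Gstm5 were lower, and Gsta3 and Gstm7 were not called.

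The metallothioneins were the members called higher in KO HFD relative to WT HFD islets. Mt1 (transcript cluster 6978291) read 12.87, 13.17 and 13.53 in KO HFD islets (KO HFD 11: 12.52), against 12.05, 12.27, 12.79 and 12.85 in WT HFD islets. It rose by 0.70 (SE 0.21, limma adjusted p = 0.019). Mt2 (6978290) read 13.40, 13.43 and 13.56 in KO HFD islets (KO HFD 11: 13.02), against 12.94, 13.02, 13.17 and 13.41 in WT HFD islets, and rose by 0.33 (SE 0.10, limma adjusted p = 0.026). The groups did not overlap for Mt1 and overlapped for Mt2 by 1 WT HFD array. Both levels in KO HFD islets were within the range of KO CD islets, where Mt1 read 12.63 to 13.28 and Mt2 13.25 to 13.63, with the exception of Mt1 in KO HFD 10.

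The higher calls held after median centring (Mt1 0.87, Mt2 0.50) and quantile normalization. They ended over all 18 arrays (Mt1 0.54, limma adjusted p = 0.077; Mt2 0.22, limma adjusted p = 0.18), with only these 2 groups in the fit, and without KO HFD 10 (Mt1 limma adjusted p = 0.091). Mt2 also lost its call without KO HFD 17, WT HFD 8 or WT HFD 16. KO HFD 10, the highest Mt1 array, also had the highest mean of 15 acinar genes other than the digestive enzymes, 11.55, against 10.43 and 10.44 in the other KO HFD arrays of the fit and 9.51 to 10.08 in WT HFD islets. With the acinar enzyme mean as a covariate Mt1 differed by 0.28 and Mt2 by 0.04, neither called. The enzyme mean did not overlap between KO HFD and WT HFD islets, so that fit cannot separate genotype from acinar content. The part of acinar tissue in these differences was not tested further.

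Mt1 and Mt2 are neighbours on chromosome 8, and their windows (RefSeq, GRCm38.p6) are shown with the core of the metal response element, TGCACNC or TGCGCNC on either strand, in capitals. This motif was added after the values of Mt1 and Mt2 had been seen.
Mt1, chr8:94178839-94179138, + strand: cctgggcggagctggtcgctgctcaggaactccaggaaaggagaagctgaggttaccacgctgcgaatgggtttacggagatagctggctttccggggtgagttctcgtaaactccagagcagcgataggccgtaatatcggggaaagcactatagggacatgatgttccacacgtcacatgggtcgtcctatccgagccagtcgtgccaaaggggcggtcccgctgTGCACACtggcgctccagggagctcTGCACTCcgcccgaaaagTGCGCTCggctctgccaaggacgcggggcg
Mt2, chr8:94172368-94172667, + strand: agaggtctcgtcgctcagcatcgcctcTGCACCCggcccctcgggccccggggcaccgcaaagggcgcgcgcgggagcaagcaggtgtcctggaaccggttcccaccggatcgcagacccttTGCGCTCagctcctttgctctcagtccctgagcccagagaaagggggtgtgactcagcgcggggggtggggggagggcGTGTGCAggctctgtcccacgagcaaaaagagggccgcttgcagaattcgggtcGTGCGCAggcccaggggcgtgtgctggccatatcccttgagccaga
Mt1 held 3 copies and Mt2 held 4. At least 1 copy was present in 13 of the 38 members with a window (34.2%) and in 28.2% of 27025 genes. No overlap with an antioxidant core was seen in the window of Mt2, whose single antioxidant core began at position -79.

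**Figure D2:**
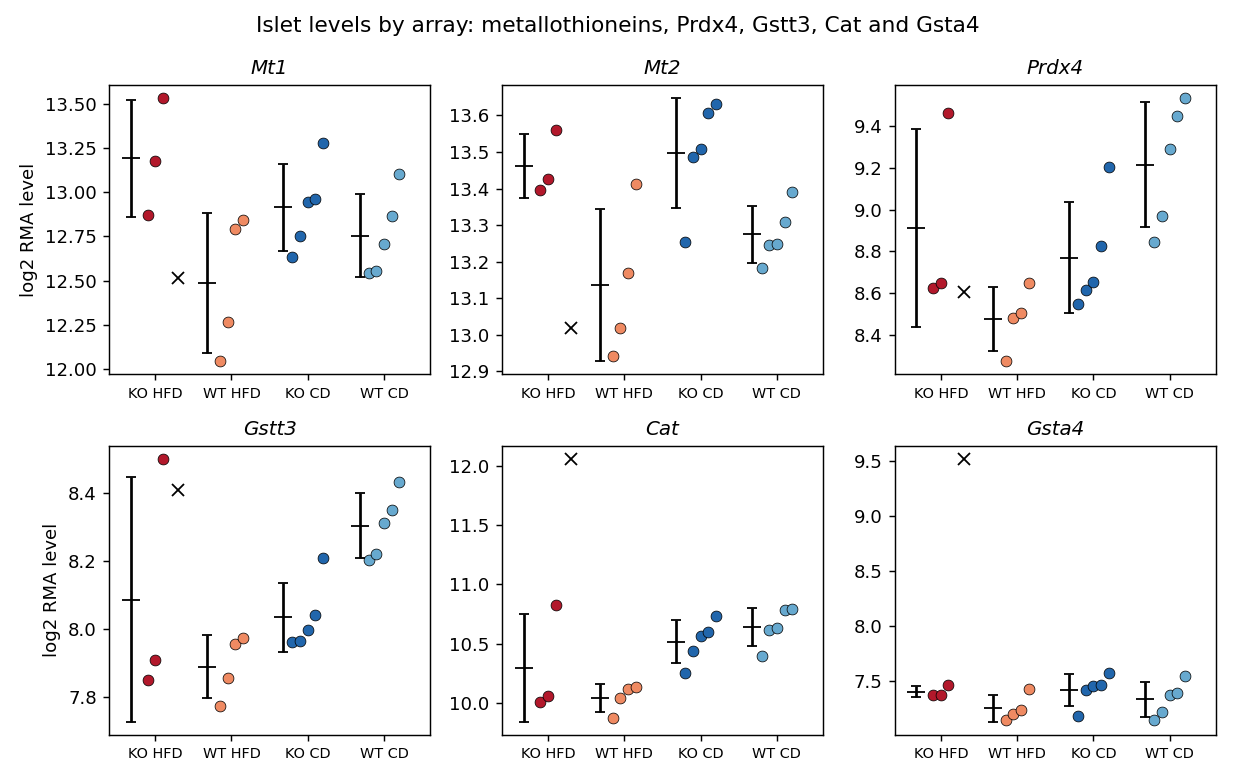
Log2 RMA level (vertical axis, its own range in each panel) of Mt1, Mt2, Prdx4, Gstt3, Cat and Gsta4 in KO HFD, WT HFD, KO CD and WT CD islets, with points for arrays, bars for the mean ± SD of 3, 4, 5 and 5 arrays, and a cross for KO HFD 11. KO HFD 10 is the highest KO HFD array of the fit for Mt1, Prdx4, Gstt3 and Cat, and KO HFD 11 stands above all other arrays for Cat (12.06) and Gsta4 (9.52).

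On HFD, KO islets differed from KO CD islets in 19 members, all lower. This was 43.2% of members against 44.6% of all genes, and no member was called higher, against 1.45% of all genes. The groups did not overlap for 17 members (38.6%), against 41.7% of all genes, and the median difference was -0.21 over members and -0.18 over all genes. By family, 4 of 8 peroxidases, 4 of 17 transferases, 4 of 5 peroxiredoxins and sulfiredoxin, 3 of 4 thioredoxins and reductases, 2 of 3 synthesis and recycling enzymes, Sod2 and Hmox1 were lower. In the same comparison all 4 alpha cell markers and all 3 delta cell markers were lower (delta mean 10.77 to 11.06 in KO HFD, against 11.52 to 11.94 in KO CD islets). So were 6 of 10 endothelial, 2 of 10 beta cell, 3 of 18 leukocyte and 0 of 13 stellate and fibroblast markers, beside the 44.6% of all genes. Acinar genes went the other way, with 6 of 12 digestive enzymes and 6 of 15 other acinar genes called higher. The part of these cell types was not tested.

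Gpx3 differed most, at -0.84 (SE 0.12, limma adjusted p = 4.4e-04), with 12.40, 12.55, 12.55, 12.55 and 12.70 in KO CD islets above all 3 KO HFD levels given above. Gpx3 and Gstm4 (-0.53, limma adjusted p = 0.0018) were the 2 members whose call held under all 27 alternatives. Gpx4, which reduces lipid peroxides in membranes, read 10.10, 10.24 and 10.40 in KO HFD islets (KO HFD 11: 10.71), against 10.57, 10.59, 10.70, 10.72 and 10.80 in KO CD islets, a difference of -0.43 (SE 0.08, limma adjusted p = 0.0010). Prdx1 read 7.02, 7.34 and 7.38 in KO HFD islets (KO HFD 11: 7.97), against 7.43, 7.67, 7.90, 7.95 and 7.99 in KO CD islets, a difference of -0.54 (SE 0.12, limma adjusted p = 0.0021). All 3 genes separated the groups of the fit without overlap.

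Srxn1 (-0.32), Txn2 (-0.44), Gpx8 (-0.45), Gstm5 (-0.40) and Gss (-0.38) followed, and the other called members lay between -0.45 and -0.19. Of these calls, that of Sod2 ended without KO CD 2, 3 or 12 or KO HFD 10, 17 or 18, that of Prdx2 without KO CD 12 or KO HFD 17 or 18, that of Hmox1 without KO HFD 17 or 18, and that of Txnrd2 without KO HFD 18 (limma adjusted p up to 0.12). The direction of the smaller changes depended on the scale. Centred on array medians, where the median over all genes was 0.07 in place of -0.18, only Gpx3 (-0.59), Prdx1 (-0.29), Gstm4 (-0.28) and Txn2 (-0.19) were called lower. Gclc, Gpx5, Gpx7, Gstt1, Gstt4 and Mt1 were then called higher, and Sod2, Txnrd2 and Txnrd3 turned to small positive differences (0.01, 0.06 and 0.04). Gpx5, Gstt4 and Txnrd3 lie in the range of unexpressed genes.

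**Figure D3:**
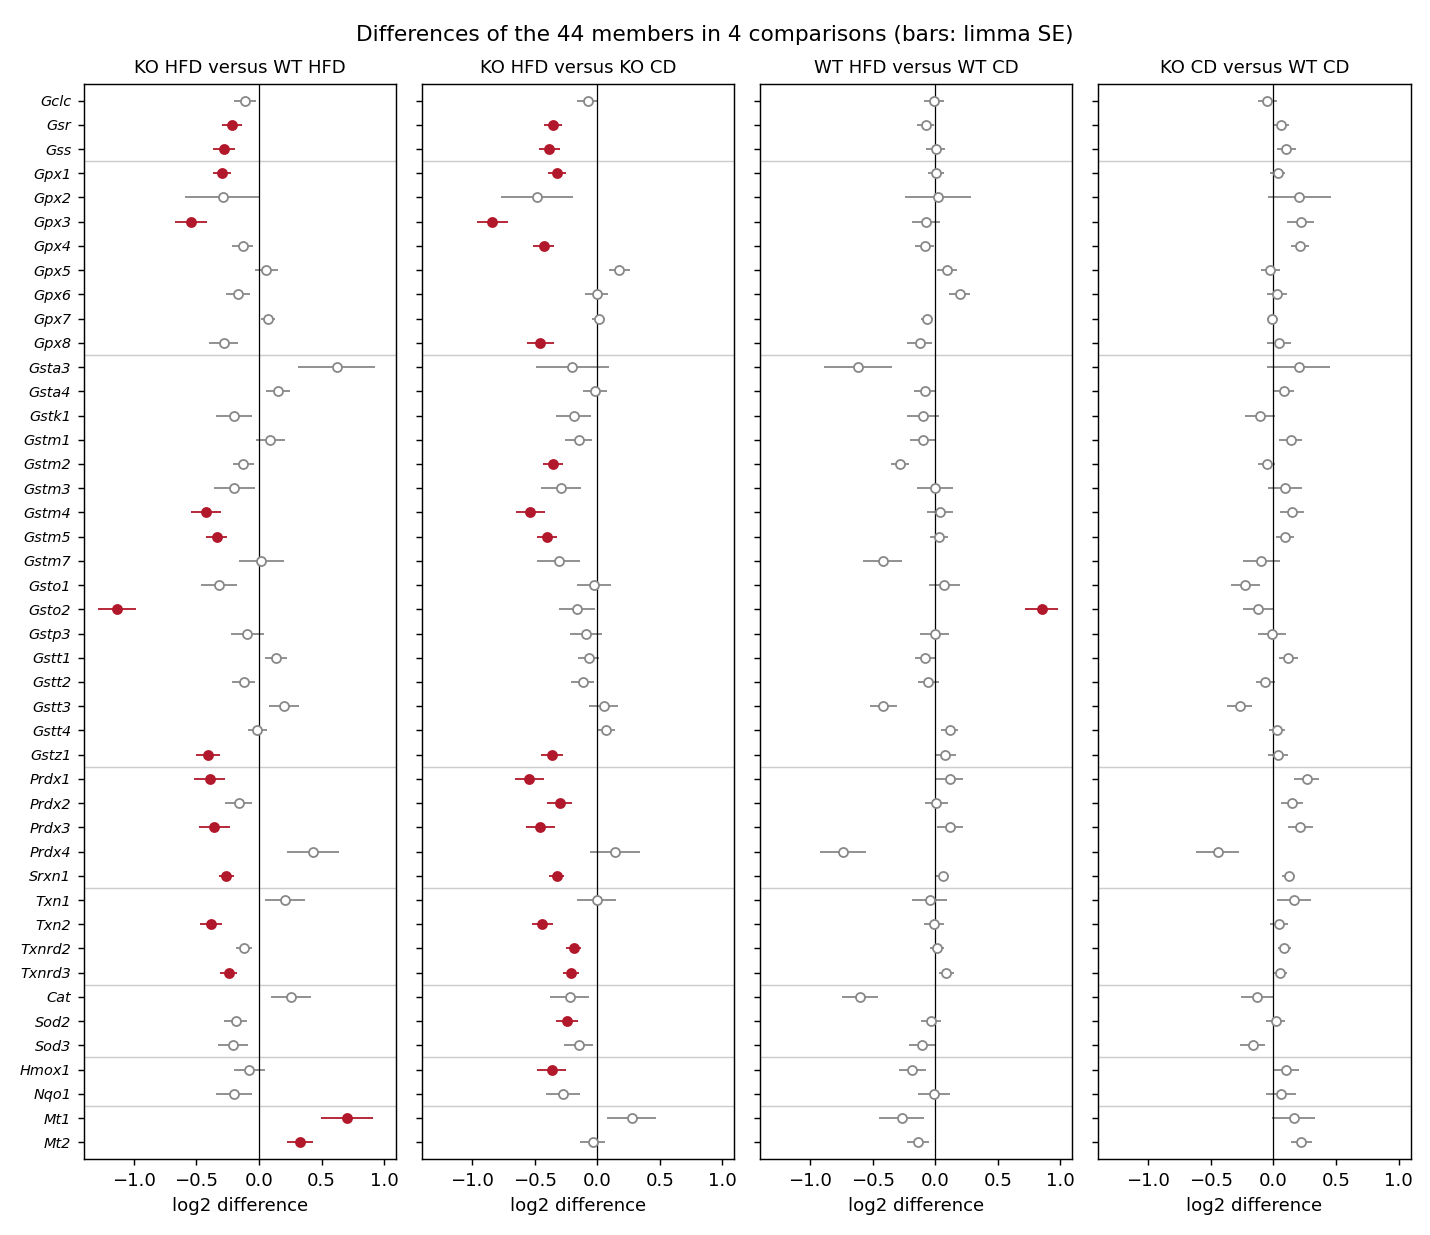
Log2 difference (horizontal axis) of each of the 44 members in 4 comparisons, with limma SE as bars, filled points for calls at an adjusted p under 0.05, and lines between families. KO HFD islets hold 13 lower and 2 higher calls against WT HFD and 19 lower calls against KO CD islets, and Gsto2 is the single call for WT HFD against WT CD islets.

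**Figure D4:**
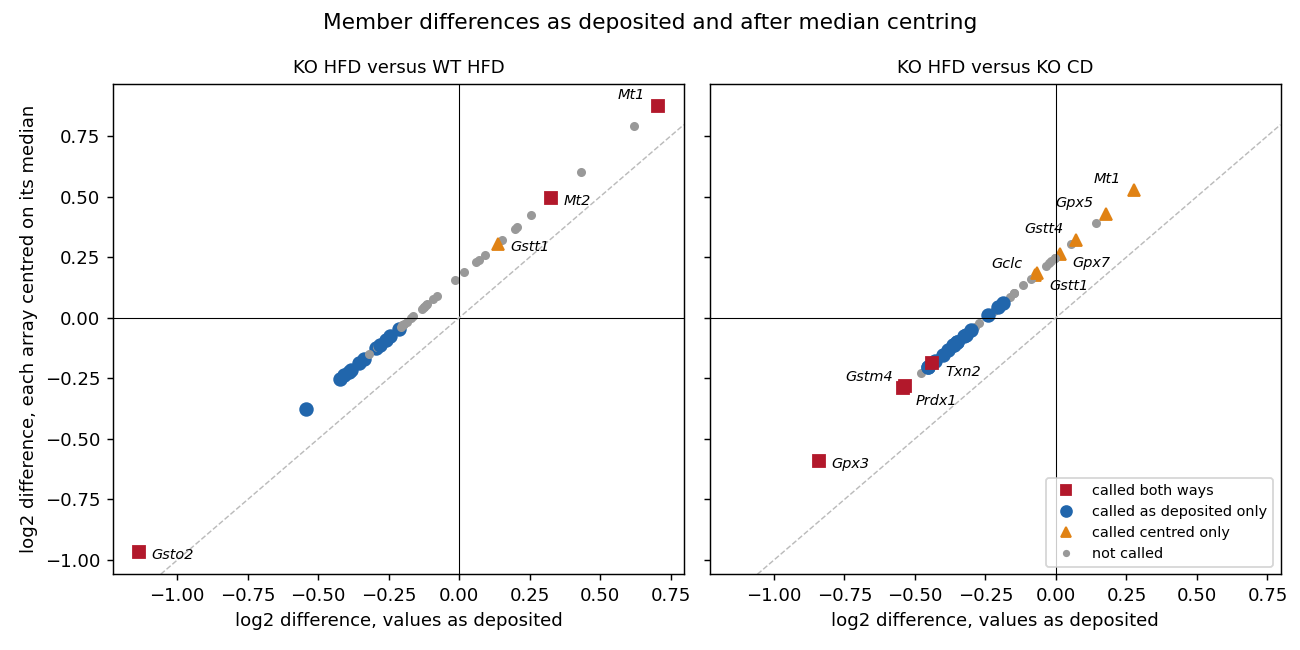
Log2 difference of each member as deposited (horizontal axis) and after each array was centred on its median over all genes (vertical axis), for KO HFD versus WT HFD and KO HFD versus KO CD islets, with the dashed line at equal values. Centring moves every member up, and 4 members in the left panel and 10 in the right are then called.

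In the knockout on CD no member was called relative to WT CD islets by limma, against 0.141% of all genes called higher and 0.0135% called lower. At an unadjusted p under 0.05 there were 7 members and 2322 genes (15.6%). The differences ran from -0.44 for Prdx4 (95% interval -0.81 to -0.08) to 0.26 for Prdx1 (95% interval 0.05 to 0.48), and these intervals leave room for changes of that size. Gpx3 and Gpx4 were the 2 members (4.55%, against 3.39% of all genes) whose arrays did not overlap. Gpx4 read 10.57 to 10.80 in KO CD islets (median 10.70), against 10.30 to 10.53 in WT CD islets (median 10.51), a difference of 0.21 (95% interval 0.06 to 0.36, limma adjusted p = 0.21).

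The genotype difference varied with diet for 16 members. The interaction was positive for Prdx4 and Gstt3 (4.55% of members, against 1.45% of all genes) and negative for 14 (31.8%, against 31.2% of all genes). This contrast is built from the same arrays as the pairwise ones. After Gsto2, the most negative values among members above background in all groups were -0.76 for Gpx3 (SE 0.17, limma adjusted p = 0.0057) and -0.57 for both Gstm4 and Prdx3, with -0.66 for Prdx1, which was below background in KO HFD islets. Srxn1 had the smallest adjusted p after Gsto2 (-0.38, SE 0.08, limma adjusted p = 0.0048). The call of Gsr (-0.27) ended in 12 of 17 omissions of an array (limma adjusted p up to 0.11) and that of Gpx4 (-0.34) without WT HFD 7, KO HFD 17 or KO HFD 18 (limma adjusted p up to 0.087). After median centring Gsto2 (-0.78), Gstt3 (0.70) and Prdx4 (1.11) were called, and the other 13 were not.

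Prdx4 had the largest positive interaction, 0.88 (SE 0.27, limma adjusted p = 0.022). It read 8.63, 8.65 and 9.46 in KO HFD islets, against 8.28 to 8.65 in WT HFD islets, and 8.55, 8.62, 8.65, 8.83 and 9.20 in KO CD islets, against 8.84 to 9.53 in WT CD islets. The 9.46 was KO HFD 10, and without that array the limma adjusted p was 0.066. Gstt3 (0.47, SE 0.15, limma adjusted p = 0.031) read 7.85, 7.91 and 8.50 in KO HFD islets, against 7.77 to 7.97 in WT HFD islets, and 7.96 to 8.21 in KO CD islets, against 8.20 to 8.43 in WT CD islets. It lost its call without KO HFD 10, KO CD 2, KO CD 12, WT CD 5 or WT HFD 16. The arrays with the highest Prdx4, WT CD 15, KO HFD 10, WT CD 5, WT CD 6 and KO CD 13, were also the 5 with the highest mean of the 15 other acinar genes, 10.86 to 11.55. The 4 WT HFD arrays read 9.51 to 10.08 in those genes and 8.28 to 8.65 for Prdx4. The part of acinar tissue in the interaction was not tested further. With the acinar enzyme mean as a covariate, the interaction was -0.25 for Prdx4 and -0.17 for Gstt3, neither called.

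KO HFD 11, the array kept out of the fit, stood above all 17 other arrays in 7 members (15.9%, against 7.60% of all genes) and below them in none. Cat read 12.06, against 9.88 to 10.82 elsewhere, and Gsta4, an alpha-class transferase that handles lipid aldehydes, read 9.52, against 7.15 to 7.58. Gstm3 read 7.78, against 5.49 to 6.23, Gsto1 10.24, against 8.60 to 9.35, and Gstk1 10.62, against 9.27 to 10.07. These 5 values lay well outside the others, and Gstm7 and Gstt1 lay just above them. The same array carried the intestinal markers given above. Of the 13 members called lower in KO HFD relative to WT HFD islets, KO HFD 11 lay below the WT HFD range for Gsto2, Gstz1 and Txnrd3 only, and of the 2 called higher it exceeded the WT HFD range for neither. Over all 18 arrays 4 members were called in that comparison, Gsto2, Gstz1, Txn2 and Txnrd3, all lower. Of these, Txnrd3 lay below background in every group. Against KO CD islets KO HFD 11 lay below the range for 7 of 19. The counts against the called members and over all 18 arrays are of members alone, with no share of all genes beside them.

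KO CD 12 was the highest of all 18 arrays for 18 members (40.9%, against 23.6% of all genes), and KO HFD 18 the lowest for 11 (25.0%, against 18.6%) and KO HFD 17 for 9 (20.5%, against 17.1%). These are the arrays with the highest (8.71) and the lowest (8.34 and 8.34) medians over all genes.

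Genes around the members were taken from written lists of the NRF2 pathway and of glutathione, NADPH, thioredoxin-fold, metal and selenium biology. For KO HFD against WT HFD islets 5 of 14 genes of NRF2 and its regulators were lower and none higher, beside 28.1% of all genes lower and 1.32% higher. The median difference of the list was -0.13, beside -0.13 for all genes. Keap1, which holds NRF2 for degradation, differed by -0.30 (limma adjusted p = 0.015), and Nfe2l2, which encodes NRF2, by -0.14 (limma adjusted p = 0.21), a gene named here after its values were seen. Centred on array medians, no gene of the list was called lower and 1 was called higher. Of 16 further genes, listed as NRF2 targets and related detoxification genes, 8 were lower, beside the same 28.1% of all genes. After centring 1 was lower and 2 higher. The 28.1% and 1.32% are of values as deposited, so the centred counts have no share of all genes beside them. Nqo2, a quinone reductase, was the gene of that list with the smallest adjusted p (-0.42, limma adjusted p = 0.0053).

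Of 31 thioredoxin-fold partners, 16 were lower and 1 higher in KO HFD relative to WT HFD islets, and 5 and 1 after centring. Pdia4 (-0.41) and Txndc5 (-0.42), disulfide isomerases of the endoplasmic reticulum, and the membrane thioredoxins Tmx1 (-0.34) and Tmx2 (-0.59) had the smallest adjusted p of the list, 0.0011 to 0.0019. Of 19 genes listed under selenoproteins and their synthesis, other than the peroxidases and reductases, 11 were lower and none higher, 2 and none after centring. Sephs1 (-0.48, limma adjusted p = 0.0017) and Selenom (-0.50, limma adjusted p = 7.1e-04), a selenoprotein of the endoplasmic reticulum, were called on both scales. The counts as deposited stand beside 28.1% of all genes called lower, and those after centring have no share of all genes beside them. No list was tested as a set.

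Of 17 NADPH-supplying genes, 5 were lower in KO HFD relative to WT HFD islets, beside 28.1% of all genes, and none was higher. In KO HFD relative to KO CD islets 11 were lower, beside 44.6% of all genes, and none was higher. Idh1, the cytosolic isocitrate dehydrogenase, was the gene of any list called in KO CD versus WT CD islets, where it was higher (0.74, SE 0.13, limma adjusted p = 0.024). It was lower in KO HFD than in KO CD islets (-0.84, limma adjusted p = 7.8e-04). Over all 18 arrays the limma adjusted p was 0.25 and 0.20 in these 2 comparisons. Of 26 genes of glutathione breakdown and transport, 4 were lower in KO HFD relative to WT HFD islets, beside the same 28.1% of all genes. In KO HFD relative to KO CD islets 12 were lower, beside the same 44.6%. Slc7a11, the cystine importer that feeds glutathione synthesis, was singled out after its values were seen and had a positive interaction (0.72, SE 0.23, limma adjusted p = 0.027), with differences of 0.39 for KO HFD against WT HFD islets (limma adjusted p = 0.11) and -0.33 in KO CD versus WT CD islets (limma adjusted p = 0.30).

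Of 16 metal-handling genes, 5 were lower and 1 higher in KO HFD relative to WT HFD islets, where 28.1% of all genes were lower and 1.32% higher. After centring none of the 16 was lower and 4 were higher, with no share of all genes beside these counts. The gene called higher was Tfrc, the transferrin receptor (0.56, SE 0.12, limma adjusted p = 0.0049), and the copper chaperone Atox1 had the smallest adjusted p among the lower ones (-0.31, limma adjusted p = 0.0028). Of 22 genes that produce reactive oxygen, 2 were lower in KO HFD relative to WT HFD islets, Acox3 (-0.31) and Ero1a (-0.20), beside the same 28.1% of all genes. This was the smallest share of the 8 lists. The median difference of these 22 genes was -0.03, and 0.14 after centring.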

How the data were processed

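The authors summarised exon arrays to gene level with RMA in Affymetrix Expression Console 1.3, and deposited log2 values for 23332 transcript clusters on 18 arrays. Exon-level data were not used here. Of the clusters, 14996 carry a single gene symbol; for 135 genes with several, the brightest was kept, leaving 14860 genes. RMA pulls low levels together, so differences of dim genes are understated, and it assumes like intensity distributions between arrays. The number of arrays limits precision.

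A model of 4 groups was fitted to 17 arrays with limma 3.58.1 (R 4.3.3), Benjamini-Hochberg over all genes, threshold 0.05. The study removed 1 KO HFD array without naming it; KO HFD 11 was taken as that array because only its omission matched the study's tables. Members and lists, intestinal markers included, were chosen with earlier results of these data known. Any member could be named. Per-array values are given for Gsto2, the calls on control diet, in WT mice or in the interaction, and the largest non-overlapping calls in KO HFD islets. Outside this rule, some are given for Mt2, for Cat, Gsta3 and Gsto1, which the fit of 17 arrays did not call, and for single arrays that stood apart. Other lists contribute up to 4 called genes by adjusted p. Promoters of 300 bases came from RefSeq (GRCm38.p6). The fit was tested on simulated data. Alternatives were all 18 arrays, each array left out, arrays 13 and 14 left out, other scalings, variance models, array weights, a dim-gene filter, islet numbers as a block and an acinar covariate.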

Additional observations from a re-analysis of the deposited data

Results flagged for a closer look

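Arrays far from the rest of their group were looked for in 176 sets of 1 gene and 1 group, in which chance alone gives about 1 in 20, and 10 were found. KO HFD 11 accounted for 4, at 8.997 for Gss (other KO HFD arrays 8.43 to 8.487), 9.522 for Gsta4 (7.374 to 7.466), 7.778 for Gstm3 (5.509 to 5.696) and 9.584 for Gstm5 (9.179 to 9.181). KO HFD 10 stood at 9.459 for Prdx4, against 8.606 to 8.649 in the other KO HFD arrays. WT HFD 7 was high at 10.106 for Gstm4 (9.78 to 9.79 in the others) and 10.416 for Srxn1 (10.333 to 10.344). WT HFD 9 read 5.441 for Gpx5 (5.17 to 5.194), WT HFD 16 read 9.592 for Gstk1 (9.836 to 9.855), and WT CD 14 read 8.885 for Gsta3 (7.454 to 7.754).

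The genotype difference varied with diet, by the interaction term of limma at an adjusted p under 0.05 over 17 arrays, for 16 members. The glutathione peroxidases gave -0.328 for Gpx1, -0.7631 for Gpx3 and -0.3442 for Gpx4. Among synthesis and recycling enzymes it was -0.2735 for Gsr, a call that ended in 19 of 26 alternatives, and -0.3853 for Gss. The transferases gave -0.5734 for Gstm4, -0.4321 for Gstm5, -1.0136 for Gsto2, -0.4413 for Gstz1 and 0.4664 for Gstt3. The relay of peroxiredoxins and thioredoxins gave -0.6566 for Prdx1, -0.5699 for Prdx3, 0.8766 for Prdx4, -0.3827 for Srxn1, -0.4282 for Txn2 and -0.2964 for Txnrd3.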

How the results depend on the processing

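In KO HFD versus WT HFD islets 15 members were called, and 4 over all 18 arrays, 4 after median centring, 4 after quantile normalization and 0 with the acinar enzyme mean as a covariate (9 at an unadjusted p under 0.05 by limma, where 9 of all genes were called). Leaving out 1 array gave 10 (without KO HFD 17 or WT HFD 7) to 16. In KO HFD versus KO CD islets 19 were called, and 10 after median centring and 4 after quantile normalization, with 15 to 21 on leaving out 1 array. The interaction had 16 calls, and 7 over all 18 arrays, 3 after median centring, 5 after quantile normalization and 0 with the acinar covariate (8 at an unadjusted p under 0.05 by limma), with 14 to 17 on leaving out 1 array. In WT HFD versus WT CD islets 1 was called, and 4 with only those groups fitted, 6 with array weights and 0 with the acinar covariate (2 at an unadjusted p under 0.05 by limma). Leaving out 1 array gave 0 (without WT CD 5, 6 or 15 or WT HFD 8, 9 or 16, where limma gave 5 to 8 at an unadjusted p under 0.05) to 4 (without KO HFD 10). KO CD versus WT CD islets had 0 calls by limma throughout these alternatives. Except where stated, these counts are of members alone, without the share of all genes called in each fit. A changed count is therefore not a result about the members in particular. The acinar enzyme mean did not overlap between WT HFD islets and either KO HFD or WT CD islets. Fits with that covariate therefore cannot separate it from these groups. Where a count moved, the cause was not tested.

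Median centring turned 3 lower calls against KO CD islets to positive values, 0.0101 for Sod2, 0.0622 for Txnrd2 and 0.043 for Txnrd3, none called. The acinar covariate turned the interaction to -0.1689 for Gstt3 and -0.2465 for Prdx4, neither called. The interaction uses all groups, so a fit of the groups compared alone was not run for it. No paired analysis was possible because no islet number in the labels occurs in more than 1 of the groups.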
